A study of Homo sapiens with 12 samples.

Results

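Tight junctions seal the space between neighbouring epithelial cells near their apical side, and desmosomes tie the keratin filaments of one cell to those of the next. Claudins form the strands of the tight junction and set which ions pass, occludin and its MARVEL-domain relatives sit in the same strands, and the ZO proteins (TJP genes) and cingulin anchor them to actin. In desmosomes the cadherins desmocollin and desmoglein span the membrane, and plakoglobin, plakophilins and desmoplakin link them to keratin. Cells that take on mesenchymal features are known for losing both kinds of contact.

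Described here are 47 genes of these families among 48114 genes in the tables. They are genes named CLDN, TJP, DSC, DSG or PKP with a number, together with OCLN, MARVELD2, MARVELD3, F11R, CGN, DSP, JUP, PERP, PPL and EVPL. The naming rule used no values, but it was set with earlier results of these data known. The genes comprised 24 claudins, 4 other tight junction membrane genes, 3 plaque genes of the tight junction, 7 desmosomal cadherins and 9 further desmosome genes. PANC-1, a cell line of pancreatic ductal adenocarcinoma (PDAC) of the basal-like subtype, was transfected for 48 h with control siRNA (siCtrl), siRNA against QKI (siQKI) or siRNA against RBFOX2 (siRBFOX2). The labels give 40 nM for the siRNAs against QKI and RBFOX2 and name no dose for the control. QKI and RBFOX2 are RNA-binding proteins that regulate splicing. HPAF-II, a PDAC line of the classical subtype, is labelled as receiving the control siRNA for the same time. Each of the 4 groups had 3 biological replicates, and each subtype was represented by 1 line. PolyA RNA was sequenced, and the values are gene totals, so isoforms of a gene are not separated. In bulk RNA, fewer cells of a type and less RNA per cell cannot be told apart.

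The knockdowns were seen in the totals of their targets. QKI was at 24539 to 26150.4 normalized counts in siCtrl and 4629.7 to 5453 in siQKI, and RBFOX2 fell from 15355 to 15508 in siCtrl to 1712 to 2403 in siRBFOX2. RBFOX2 was also lower in siQKI (log2 fold change -0.29 ± 0.09, adjusted p = 0.0207). The keratin genes KRT8, KRT18 and KRT19 were expressed in every library of both lines. The endothelial markers summed to at most 0.331 rescaled counts (each library scaled to a total of 1000000) in any library. PTPRC and CD3E were at or near 0. Other epithelial and ductal markers differed between the lines. EPCAM was at a mean of 13.8 rescaled counts in PANC-1 siCtrl and 423 in HPAF-II, KRT7 at 4.16 and 866, and CDH1 at 2.87 and 196. SOX9 was at 313 and 315. Of the leukocyte markers, CD68 was expressed in both lines and LYZ in HPAF-II, and of the fibroblast markers COL1A1 was expressed in both.

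Of the 47 genes, 39 reached a mean normalized count of 10 in PANC-1 or in HPAF-II, and 33 reached it over the 9 PANC-1 libraries and were tested there. The 8 others were CLDN5, CLDN17, CLDN18, CLDN19, CLDN20, CLDN25, CLDN34 and DSC1, of which CLDN17, CLDN25 and CLDN34 were listed at 0 in all 12 libraries. The 47 genes took 0.234% to 0.243% of the total in siCtrl, 0.306% to 0.326% in siQKI, 0.257% to 0.269% in siRBFOX2 and 0.351% to 0.377% in HPAF-II. PERP, a membrane protein of desmosomes, made up most of this share in PANC-1 and little of it in HPAF-II. Without PERP the ranges were 0.0866% to 0.0878% in siCtrl, 0.0910% to 0.0940% in siQKI, 0.0870% to 0.0914% in siRBFOX2 and 0.290% to 0.314% in HPAF-II.

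The first comparison asked how the junction genes of the classical line stood against those of the basal-like line, both under control siRNA. No test was run, since each line has its own normalization. A gene was called when its means of rescaled counts were at least 2-fold apart and the 3 libraries of one line did not overlap those of the other. In HPAF-II, 26 of 39 junction genes were called higher, 3 lower (CLDN6, CLDN11 and PERP) and 10 neither way. Over all 24673 genes compared, 42.7% were called, 21.1% higher and 21.6% lower. For the minimum in this comparison, the PANC-1 mean was taken over the siCtrl libraries alone. CLDN16, CLDN22 and DSG4, which reached it over the 9 PANC-1 libraries, fell short there. Of the 39, 9 reached the minimum only in HPAF-II, of which 7 were called higher, and 2 only in PANC-1, both called lower, and the minimum itself favours a difference in these 11. Of the 28 junction genes that reached it in both lines, 19 were called higher, 1 lower and 8 neither way, beside 36.4% of 18894 such genes called, 20.4% higher and 16.0% lower. The median log2 ratio of these 28 was 1.62, against 0.13 over all genes of this kind.

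The HPAF-II libraries differed among themselves in these genes. Replicate 3 held 2.71 times the mean of replicates 1 and 2 for CLDN4, 2.38 times for CLDN15, 2.27 times for PKP3 and 2.06 times for CLDN7. It held 0.541 times for TJP1, 0.563 times for PKP4 and 0.567 times for DSP. Over 17177 genes with an HPAF-II mean of at least 50, 18.8% were at least 1.5-fold above and 15.2% at least 1.5-fold below the mean of the other 2 libraries in replicate 3, while 7.15% and 10.9% were so in replicate 2 against replicate 1. In replicate 1, the mesenchymal gene VIM was at 15.2 rescaled counts against 0.283 and 0.300 in the others and 5312 to 5499 in PANC-1 siCtrl, and the fibroblast gene COL1A2 was at 3.47 in replicate 1 and 0 in the others. The part of these differences in the values given here was not tested. Leaving out any 1 of the 6 libraries left 26 or 27 genes called higher and 3 or 4 lower.

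**Figure D1:**
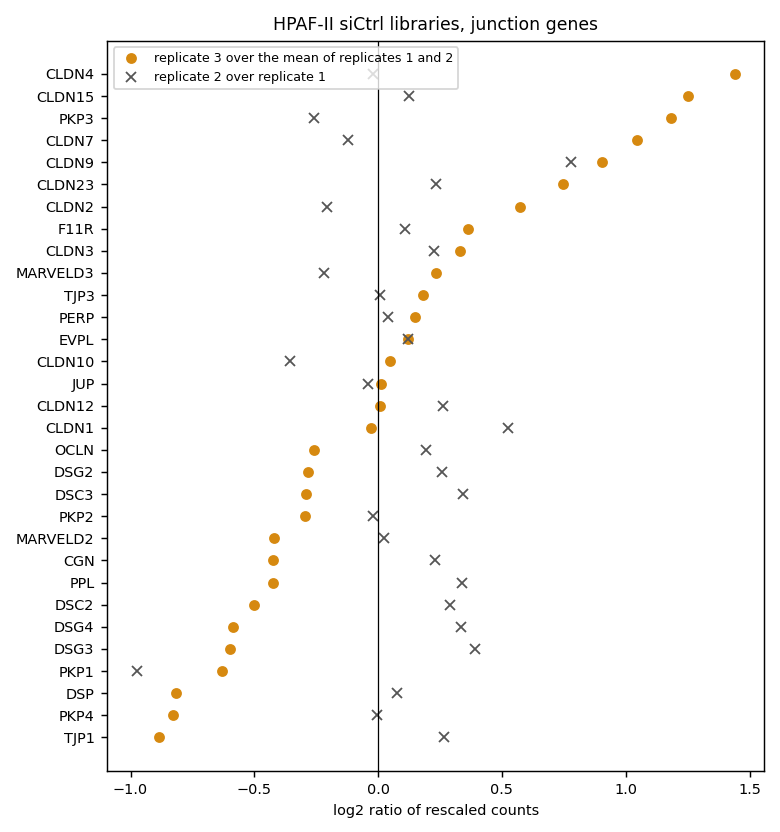
Ratios between HPAF-II siCtrl libraries (horizontal axis, log2 ratio of rescaled counts) for the 31 junction genes whose HPAF-II mean reached 50 normalized counts and that had no library at 0. Orange points are replicate 3 over the mean of replicates 1 and 2, crosses are replicate 2 over replicate 1; CLDN4, CLDN15, PKP3 and CLDN7 have the orange points farthest to the right and TJP1, PKP4 and DSP those farthest to the left.

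Among claudins, 9 of 17 compared were called higher in HPAF-II, 2 lower and 6 neither way. Over all genes compared 21.1% were called higher and 21.6% lower. Of the claudins called, CLDN2, CLDN14, CLDN22 and CLDN24 reached the minimum only in HPAF-II. CLDN6 and CLDN11 reached it only in PANC-1, and the minimum favours a difference in all of these. Levels are compared between genes as rescaled counts per kb of exon. In PANC-1 siCtrl, CLDN4, a barrier-forming claudin, stood above all others at 41.3 ± 1.84 per kb (SD, n = 3), and CLDN1, also barrier-forming, came next at 10.5 ± 1.19. CLDN7 (6.62 ± 0.616), CLDN12 (6.33 ± 0.400) and CLDN3 (4.33 ± 0.360) followed, of which CLDN7 and CLDN12 differed by less than their spread. In HPAF-II, CLDN3 (38.2 ± 5.88), CLDN4 (33.9 ± 21.3) and CLDN7 (32.4 ± 14.7) led and did not differ beyond their spread, with CLDN12 (17.8 ± 1.62), CLDN1 (17.4 ± 3.16) and CLDN2 (13.1 ± 3.29) after them.

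CLDN2, which forms pores for cations and water and is known from leaky epithelia, was listed at 0 in all 3 PANC-1 siCtrl libraries and in HPAF-II at 41.3, 35.7 and 57.3 rescaled counts. The gene shares part of its interval with MORC4. CLDN3 (chr7:73768997-73770640) was at 5.27, 6.05 and 5.23 in PANC-1 and 41.3, 48.3 and 56.3 in HPAF-II, 8.81 times as high, with no overlap. Its neighbour CLDN4 (chr7:73827744-73832690) was at 186, 203 and 193 in PANC-1 and 102, 101 and 275 in HPAF-II, so that the HPAF-II libraries lay on both sides of the PANC-1 libraries. CLDN7 was 4.89 times as high in HPAF-II (62.2, 57.1 and 123 against 16.1, 18.2 and 15.2), CLDN15 3.28 times (2.18, 2.38 and 5.42 against 0.808, 1.07 and 1.15), CLDN9 3.27 times (0.604, 1.04 and 1.54 against 0.370, 0.224 and 0.358) and CLDN12 2.81 times (109, 131 and 121 against 43.0, 39.9 and 45.2). CLDN7 overlaps ELP5 in the annotation. For CLDN1 (1.66 times) and CLDN10 (1.85 times) the libraries did not overlap but the difference stayed under 2-fold, and for CLDN23 (0.876 times) they overlapped.

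CLDN6, a claudin of embryonic epithelia, and CLDN11, known from myelin and the testis, had the opposite pattern. CLDN11 was at 2.35, 2.17 and 2.29 rescaled counts in PANC-1 and 0.0794, 0 and 0 in HPAF-II, the 1 value above 0 being in the replicate with the VIM value above. CLDN6 was at 0.133, 0.227 and 0.152 in PANC-1 and 0 in all HPAF-II libraries. CLDN14, CLDN22 and CLDN24 were called higher in HPAF-II at levels of at most 0.238 rescaled counts in any library, and CLDN8 and CLDN16 were as low and not called. CLDN22 overlaps WWC2 and CLDN16 overlaps CLDN1.

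Of the other membrane genes of the tight junction, OCLN (occludin) overlapped between the lines, at 52.8, 51.5 and 52.7 in PANC-1 and 50.9, 58.2 and 45.5 in HPAF-II, 0.985 times. Its relative MARVELD2 (tricellulin), which seals the corners where 3 cells meet, was 3.87 times as high in HPAF-II (26.8 ± 4.27 against 6.92 ± 0.683, SD, n = 3), with no overlap. MARVELD3, another member of that family, was at 0, 0.0861 and 0.175 in PANC-1 and 18.2, 15.6 and 19.9 in HPAF-II. The PANC-1 values rest on 0 to 60.4 normalized counts and the gene overlaps PHLPP2, so no ratio is given. F11R (JAM-A), an immunoglobulin-like adhesion protein of the junction, was 2.21 times as high (83.3, 89.9 and 111 against 42.7, 42.2 and 44.0).

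The plaque genes CGN, TJP3 and TJP1 were called higher in HPAF-II, with differences of unlike size. CGN (cingulin), which binds ZO proteins and myosin, was at 5.45, 5.43 and 4.70 in PANC-1 and 275, 323 and 223 in HPAF-II, 52.6 times. TJP3 (ZO-3), a ZO protein found mainly in epithelia, was at 0.995, 0.881 and 0.819 and 102, 103 and 116, 118 times, and overlaps ATCAY and APBA3. TJP1 (ZO-1) was 2.48 times as high (252, 304 and 151 against 95.2, 91.5 and 98.2). The interval of TJP1 overlaps 14 other genes of the annotation, most without a symbol.

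**Figure D2:**
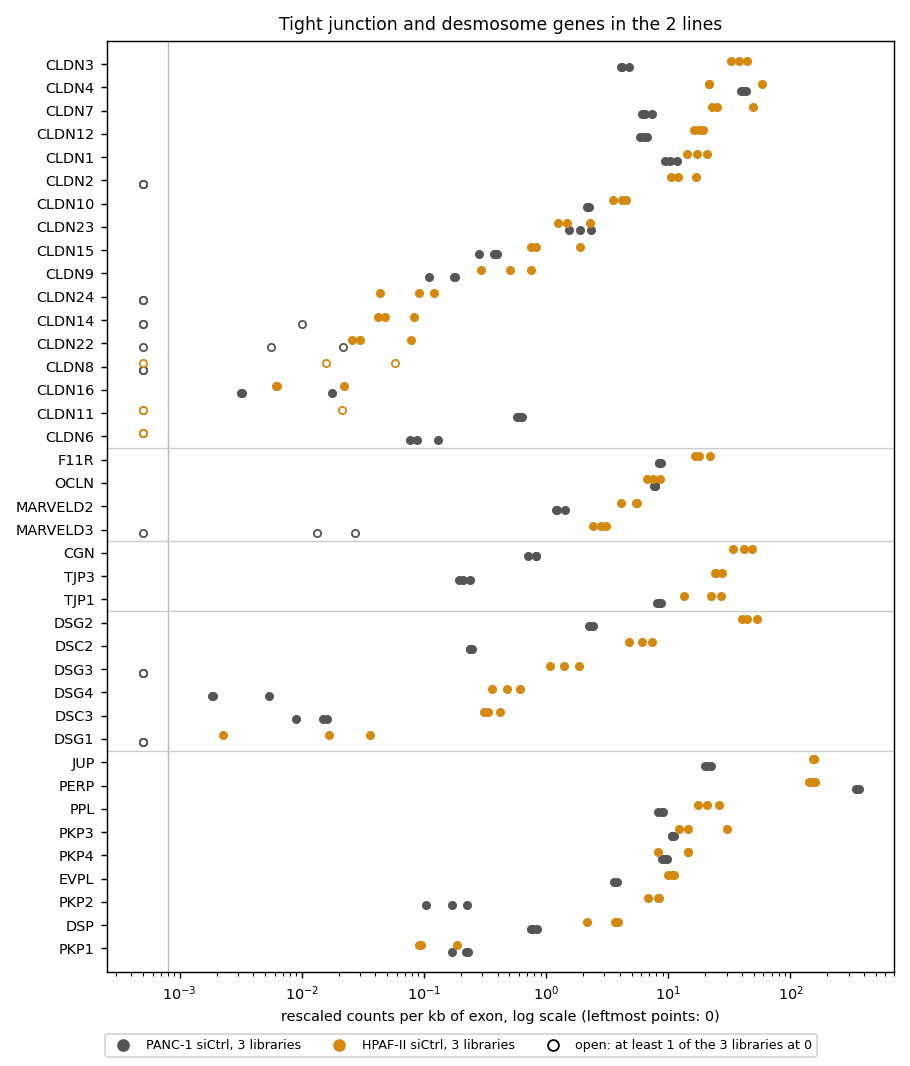
Rescaled counts per kb of exon (horizontal axis, log scale) of the 39 junction genes compared, in the 3 PANC-1 siCtrl libraries (grey) and the 3 HPAF-II siCtrl libraries (orange), grouped by role. Open points belong to a gene and line with at least 1 library at 0; the leftmost points stand for 0, and CLDN2 and DSG3 lie there in PANC-1 only.

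All 6 desmosomal cadherins compared were called higher in HPAF-II, and DSC1 was under the minimum in both lines. Over all genes compared 21.1% were called higher. Of the 6, DSG1, DSG3 and DSG4 reached the minimum only in HPAF-II, which favours such a call. The desmosomal cadherin genes lie in 1 cluster on chromosome 18. DSG2, the desmoglein of simple epithelia, was at 14.7, 15.1 and 13.9 rescaled counts in PANC-1 and 273, 326 and 247 in HPAF-II, 19.4 times. Its partner DSC2 was at 2.98, 2.99 and 3.10 and 75.7, 92.6 and 59.4, 25.1 times. The cadherins of stratified epithelia were lower in level. DSG3 was listed at 0 in all PANC-1 siCtrl libraries and at 7.78, 10.2 and 5.93 in HPAF-II, and DSC3 was at 0.113, 0.0632 and 0.105 and 2.34, 2.97 and 2.17, 24.2 times. DSG4, known from hair, was at 0.0254, 0.00861 and 0.00874 in PANC-1 and 2.26, 2.85 and 1.70 in HPAF-II, the former resting on at most 8.62 normalized counts. DSG1 was at 0 in PANC-1 and at 0.190, 0.0120 and 0.0872 in HPAF-II.

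Of the 9 further desmosome genes, 5 were called higher in HPAF-II, 1 lower and 3 neither way. Among all genes compared, 21.1% were called higher and 21.6% lower. JUP (plakoglobin), shared by desmosomes and adherens junctions, was at 102, 110.2 and 99.3 in PANC-1 and 774, 752 and 770.0 in HPAF-II, 7.38 times, with HPAF-II libraries close to each other. PKP2 (plakophilin 2) was at 1.17 ± 0.430 and 55.3 ± 6.30 (SD, n = 3), 46.8 times. The other plakophilins did not follow it, as PKP3 was 1.74 times, PKP4 1.32 times and PKP1 0.597 times as high. DSP (desmoplakin), which binds keratin filaments, was 4.08 times as high (37.2, 39.2 and 21.7 against 7.94, 7.56 and 8.53). The plakins EVPL (envoplakin) and PPL (periplakin) were 2.89 and 2.47 times as high. PERP went the other way. It stood at 1514, 1551 and 1472 in PANC-1 and 612, 628 and 687 in HPAF-II, 0.425 times, and was the junction gene with the highest level per kb in PANC-1 (353 ± 9.24), while JUP (155 ± 2.34) and PERP (149.7 ± 9.31) led together in HPAF-II.

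The repressors ZEB1 and SNAI1 are known to bind the E-box letters CAGGTG, read as CACCTG on the other strand. A search for these letters was added after the values were seen. RefSeq start sites (GRCh38.p14) were matched by symbol for 35 of the 47 genes. In the 250 bases before a start, counted on both strands and over all listed starts of a gene, 12 of these 35 held the letters (34.3%), against 20.6% of 27305 genes. A gene with more starts has more stretches that can match. Counted per start, 13 of 51 stretches of these genes held the letters (25.5%), against 17.5% of 35116. Of the matched genes compared between the lines, 9 of the 19 called higher in HPAF-II, 0 of the 3 called lower and 1 of the 7 others held them. The minimum mean favours a call in some of these. CLDN2, CLDN14, CLDN22, CLDN24, DSG1 and DSG3 reached it only in HPAF-II, and CLDN14 and DSG1 of these held the letters. CLDN6 and CLDN11 reached it only in PANC-1. The split was not tested. Some of these stretches are themselves exon in GENCODE v29, 250 bases for the one with the CLDN7 matches and 233 for that of JUP. The letters of the Grainyhead factors, AACCGGTT, were in none of the 35 and in 0.143% of all genes. A match describes the letters only and is not a bound site. The letters did not divide desmosome from tight junction genes, since among the genes higher in HPAF-II they were found for CLDN7, TJP1 and TJP3 and not for DSC3 or DSG3. The stretches below show examples, 3 desmosome genes with CAGGTG or CACCTG and 2 tight junction genes with neither, all higher in HPAF-II. For DSP and DSG2, 1 of the 2 matches each is shown, the other lying beyond the stretch. The stretches run 5′ to 3′ on the strand of the gene from 250 bases before the RefSeq start. They stop before the first exon base of GENCODE v29. CAGGTG or CACCTG is in capitals, and other E-box letters were neither searched for nor marked.
DSP (chr6:7541421-7541574, plus strand): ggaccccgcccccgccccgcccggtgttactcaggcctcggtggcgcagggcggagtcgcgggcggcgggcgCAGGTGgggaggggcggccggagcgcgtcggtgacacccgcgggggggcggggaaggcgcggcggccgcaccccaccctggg
DSG2 (chr18:31497927-31498042, plus strand): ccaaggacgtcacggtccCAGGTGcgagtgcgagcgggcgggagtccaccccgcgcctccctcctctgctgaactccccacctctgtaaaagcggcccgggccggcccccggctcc
DSC2 (chr18:31102523-31102671, minus strand): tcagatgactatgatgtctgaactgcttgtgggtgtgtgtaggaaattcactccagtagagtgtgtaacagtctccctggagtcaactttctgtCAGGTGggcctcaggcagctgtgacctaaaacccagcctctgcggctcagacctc
CGN (chr1:151511137-151511386, plus strand): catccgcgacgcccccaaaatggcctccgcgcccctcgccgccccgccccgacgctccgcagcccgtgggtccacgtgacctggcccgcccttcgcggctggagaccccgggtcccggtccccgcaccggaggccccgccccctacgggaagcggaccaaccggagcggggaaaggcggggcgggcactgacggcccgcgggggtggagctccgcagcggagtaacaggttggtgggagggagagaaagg
CLDN3 (chr7:73770271-73770520, minus strand): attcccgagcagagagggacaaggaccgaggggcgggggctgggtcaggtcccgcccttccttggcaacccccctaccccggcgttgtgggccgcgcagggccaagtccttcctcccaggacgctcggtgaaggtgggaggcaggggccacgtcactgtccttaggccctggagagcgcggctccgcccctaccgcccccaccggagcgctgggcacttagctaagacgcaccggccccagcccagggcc

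The other comparisons asked what happened to these genes in PANC-1 when QKI or RBFOX2 was depleted. Values are normalized counts, fold changes are on the log2(normalized count + 1) scale with their standard error, and adjusted p-values are from limma with Benjamini-Hochberg adjustment over 22544 genes. The siCtrl libraries are shared by both comparisons. The p-values measure the spread between these libraries. Markers moved as well. The summed level of the 6 fibroblast markers was 11.7 to 13.4 rescaled counts in siCtrl, 25.3 to 28.8 in siQKI and 15.2 to 22.6 in siRBFOX2, and DCN was at 0 in all of these libraries. Of these markers COL1A1 (0.99 in siQKI and 0.42 in siRBFOX2, adjusted p = 5.29e-06 and 0.0097) and PDGFRB (1.42 and 0.89, adjusted p = 9.70e-04 and 0.0276) rose. The 5 leukocyte markers summed to 145 to 169 in siCtrl, 117 to 119 in siQKI and 127 to 134 in siRBFOX2, where CD68 fell (-0.49 and -0.33, adjusted p = 1.14e-06 and 1.01e-04) and CD3E was at 0 throughout. The 7 epithelial and ductal markers summed to 2870.1 to 2935 in siCtrl, 2790.5 to 2966 in siQKI and 2385 to 2539 in siRBFOX2. Of the keratins among them, KRT18 fell in siQKI (-0.20, adjusted p = 0.00716), and KRT8 (-0.23), KRT18 (-0.35) and KRT19 (-0.23) fell in siRBFOX2 with adjusted p of 7.78e-04, 1.28e-04 and 5.95e-04. SOX9, a ductal factor, fell in both (-0.46 and -0.36, adjusted p = 2.57e-06 and 4.98e-05), and CDH1 (E-cadherin) rose in both (1.39 and 0.53, adjusted p = 1.54e-07 and 0.00177). The 4 mesenchymal markers moved both ways. VIM (-0.13, adjusted p = 0.0152) and ZEB1 (-0.28, adjusted p = 0.00249) fell in siQKI and did not pass in siRBFOX2. CDH2 rose in both (0.26 and 0.22, adjusted p = 5.13e-04 and 0.00319), and FN1 did not pass in either. The part of all these markers in the junction gene values was not tested.

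After QKI depletion, 10 of 33 junction genes rose, 8 fell and 15 did not pass the test. Over all genes tested 33.0% were called, 14.9% higher and 18.1% lower. The median log2 fold change was 0.10 in the junction genes and 0.03 in all genes. Of the 18 called, 3 changed by at least 1.5-fold: TJP3, CLDN10 and PKP1. With upper-quartile scaling in place of the authors' size factors, 12 rose and 4 fell, and the median of all genes moved from 0.03 to 0.09. Under that scaling 58.0% of the called genes were higher, against 45.2%.

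Desmosome genes were among those with the smallest p-values. PERP was at 513122, 539959 and 508096 in siCtrl and 772279, 706893 and 736715 in siQKI (log2 fold change 0.50 ± 0.04, adjusted p = 4.37e-07). EVPL was at 9583, 9547 and 9343 in siCtrl and 13653, 13464 and 13564 in siQKI (log2 fold change 0.51 ± 0.04, adjusted p = 4.14e-07). Its partner PPL, with which it forms part of the cornified envelope of skin, was at 23669, 23676 and 21827 and 33271, 31038 and 31961 (log2 fold change 0.48 ± 0.04, adjusted p = 8.77e-07). In all 3 genes every siQKI library lay above every siCtrl library. JUP rose from 34466, 38359.6 and 34271 to 44374, 41993 and 43051 (log2 fold change 0.27 ± 0.06, adjusted p = 0.00118), and the cadherins DSC2 (0.39 ± 0.09) and DSG2 (0.25 ± 0.06) rose with adjusted p of 0.00426 and 0.00581. The plakophilins fell where they passed the test. PKP1 was at 486, 369.8 and 475 in siCtrl and 204, 247 and 192 in siQKI (log2 fold change -1.04 ± 0.27, adjusted p = 0.00787), PKP4 fell by 0.23 and PKP3 by 0.17 on the log2 scale (adjusted p = 3.04e-04 and 0.00769). The fall of PKP3 lost its call under upper-quartile scaling (adjusted p = 0.068). PKP2 (95% interval -0.10 to 0.95) and DSP (-0.15 to 0.17) did not pass.

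Tight junction genes moved both ways. F11R was at 14473, 14707 and 15190 in siCtrl and 10857, 10620.3 and 10166 in siQKI, with no overlap (log2 fold change -0.49 ± 0.04, adjusted p = 7.36e-07). TJP3 was at 337, 307 and 283 in siCtrl and 929, 700.3 and 611 in siQKI (log2 fold change 1.25 ± 0.21, adjusted p = 2.25e-04), a rise from a low level in a gene that overlaps others. TJP1 was at 32241, 31846 and 33919.5 in siCtrl and 29630.3, 29671 and 28937 in siQKI (log2 fold change -0.15 ± 0.04, adjusted p = 0.00576), a call that upper-quartile scaling ended (adjusted p = 0.0728). CGN did not pass (95% interval -0.20 to 0.15).

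Of the 13 claudins tested, 3 rose, 3 fell and 7 did not pass, beside 14.9% higher and 18.1% lower over all genes tested. CLDN10, a claudin with anion and cation pore isoforms, was at 2538, 2661 and 2499 in siCtrl and 5216, 4054 and 4551 in siQKI (log2 fold change 0.84 ± 0.11, adjusted p = 2.20e-05). The gene overlaps DZIP1. CLDN3 (0.39 ± 0.10, adjusted p = 0.00618) and CLDN7 (0.29 ± 0.07, adjusted p = 0.00525) rose, while CLDN4, the claudin with the highest level, fell from 63066, 70763 and 66482 to 62168, 55309 and 56669 (log2 fold change -0.20 ± 0.05, adjusted p = 0.0051). CLDN4 lost its call without the mean-variance trend (adjusted p = 0.0583). CLDN11 (-0.53 ± 0.18, adjusted p = 0.0354) and CLDN12 (-0.17 ± 0.06, adjusted p = 0.0375) fell, and each lost its call in 7 of 18 alternatives, with adjusted p of up to 0.179 and 0.172. For CLDN11 these included leaving out any siCtrl library or siQKI replicate 2, and for CLDN12 leaving out siCtrl replicate 1 or 3 or siQKI replicate 1 or 3. OCLN was at 17885, 17919 and 18197 in siCtrl and 19375, 19347 and 19331 in siQKI, without overlap, and missed the threshold (log2 fold change 0.10 ± 0.04, adjusted p = 0.0559), though it passed in 3 of 18 alternatives, upper-quartile scaling among them (adjusted p = 0.00345). CLDN6 was at 45.0, 79.0 and 52.3 and 225, 90.7 and 109 (adjusted p = 0.0631). MARVELD3 was at 0 in all 3 siQKI libraries and at 0, 30.0 and 60.4 in siCtrl (adjusted p = 0.101), and passed only without siCtrl replicate 1 (adjusted p = 0.00775).

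**Figure D3:**
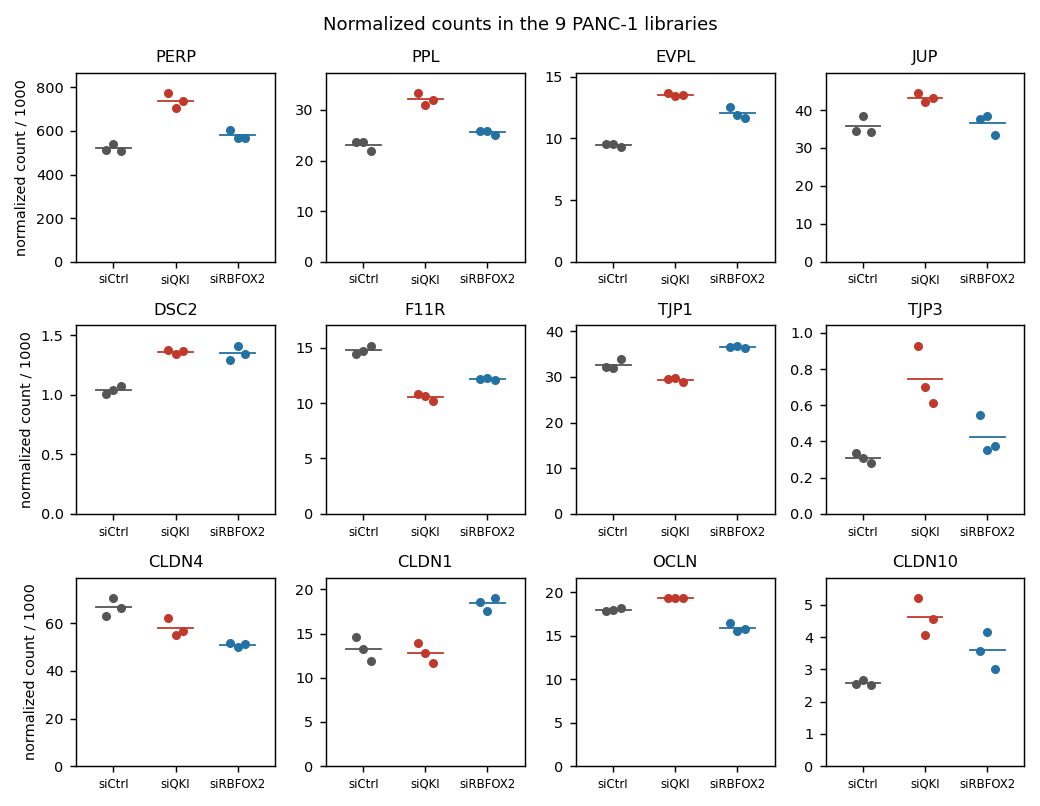
Normalized counts divided by 1000 (vertical axes, from 0) of 12 junction genes in each PANC-1 library, with a bar at the mean of each group of 3. PERP, PPL and EVPL are highest in siQKI and F11R is lowest there, CLDN4 and OCLN are lowest in siRBFOX2, CLDN1 is highest in siRBFOX2, and TJP1 is lowest in siQKI and highest in siRBFOX2.

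After RBFOX2 depletion, 8 junction genes rose, 6 fell and 19 did not pass. Over all genes 26.5% were called, 12.0% higher and 14.5% lower. The median log2 fold change was 0.15 in the junction genes and 0.01 in all genes. CLDN23 and PKP1 were the 2 called genes that changed by at least 1.5-fold.

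CLDN1 was at 14557, 13271 and 11837 in siCtrl and 18621, 17584 and 19044 in siRBFOX2, with no overlap (log2 fold change 0.48 ± 0.07, adjusted p = 1.78e-04). CLDN4 fell from 63066, 70763 and 66482 to 51588, 49951 and 51460 (log2 fold change -0.39 ± 0.05, adjusted p = 3.90e-05). CLDN23 (chr8:8701937-8704106), known from the differentiated cells of the gut, fell from 1393, 1168 and 1735 to 935, 791 and 1032 (log2 fold change -0.63 ± 0.16, adjusted p = 0.0101). That call was lost without siCtrl replicate 3 (adjusted p = 0.0594). It was also lost without the mean-variance trend and at a threshold of 0.01, and adjusted p reached 0.0764 over the alternatives. CLDN10 rose to 3582, 4150.0 and 3019.5 (log2 fold change 0.47 ± 0.11, adjusted p = 0.00409), a call lost without the mean-variance trend (adjusted p = 0.0525). OCLN fell to 16447, 15586 and 15784 (log2 fold change -0.18 ± 0.04, adjusted p = 0.00384), and F11R to 12141, 12290.2 and 12087 (log2 fold change -0.28 ± 0.04, adjusted p = 2.44e-04). TJP1 rose to 36555, 36835 and 36373 (log2 fold change 0.16 ± 0.04, adjusted p = 0.00441). TJP3 was at 548, 351 and 374 and missed the threshold (adjusted p = 0.148), as did CGN at 1904, 2056 and 2012 (adjusted p = 0.217). In both of these genes the siRBFOX2 libraries lay above all siCtrl libraries, which does not stand in for the test. The share of all genes whose libraries separate in this way is not given here for any contrast between PANC-1 groups.

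The desmosome genes that rose were EVPL, at 12513, 11923 and 11683 (log2 fold change 0.34 ± 0.04, adjusted p = 4.16e-05), DSC2 (0.38 ± 0.09, adjusted p = 0.00716), DSG2 (0.25 ± 0.06, adjusted p = 0.00874), PERP (0.16 ± 0.04, adjusted p = 0.0139) and PPL (0.15 ± 0.04, adjusted p = 0.0189). The calls of PERP and PPL were lost when siCtrl replicate 3 or siRBFOX2 replicate 1 was left out, and that of PPL also without siRBFOX2 replicate 2. The highest adjusted p over the alternatives was 0.0845 for PERP and 0.0974 for PPL. PKP3 fell (-0.26 ± 0.04, adjusted p = 5.45e-04). PKP1 was at 387, 173 and 217, overlapping siCtrl, and passed narrowly (log2 fold change -0.85 ± 0.27, adjusted p = 0.0318), a call lost without siCtrl replicate 1 or 3 or siRBFOX2 replicate 2 or 3 (adjusted p up to 0.134). JUP (95% interval -0.08 to 0.14) and DSP (-0.12 to 0.20) did not pass.

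**Figure D4:**
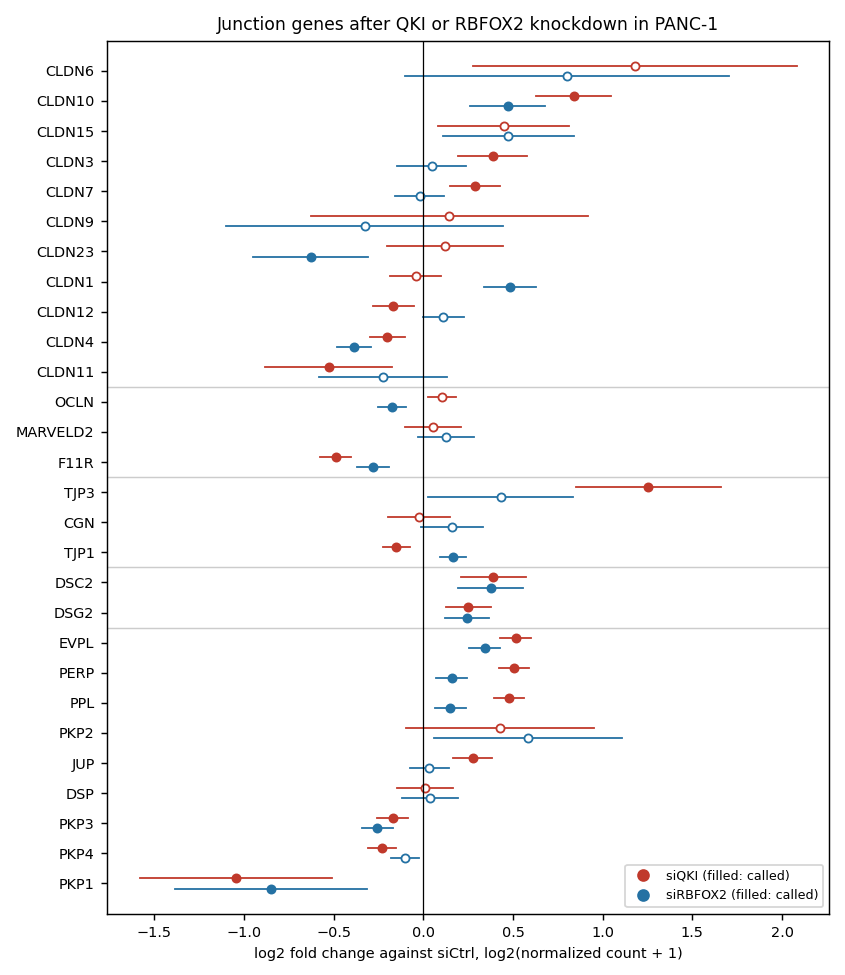
Log2 fold change against siCtrl (horizontal axis) of the 28 junction genes whose mean over the PANC-1 libraries reached 100 normalized counts, for siQKI (red) and siRBFOX2 (blue), grouped by role. Bars are 95% intervals of the fit and filled points passed the test; DSC2 and DSG2 lie nearly level in both knockdowns, and TJP1 lies on opposite sides of 0.

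The knockdowns were then compared directly, with fold changes that do not use siCtrl. The siCtrl libraries still entered the minimum mean and the estimate of the spread. In siQKI, 11 junction genes were higher than in siRBFOX2, 5 were lower and 17 did not pass. Over all genes 21.5% were called, 9.93% higher and 11.6% lower. PERP (log2 fold change 0.35 ± 0.04, adjusted p = 3.66e-05), PPL (log2 fold change 0.33 ± 0.04, adjusted p = 7.35e-05), OCLN (log2 fold change 0.28 ± 0.04, adjusted p = 1.08e-04), CLDN23 (log2 fold change 0.75 ± 0.16, adjusted p = 0.00391) and TJP3 (log2 fold change 0.82 ± 0.21, adjusted p = 0.00926) were higher in siQKI. The call of TJP3 was lost without siQKI replicate 1 (adjusted p = 0.0572), and that of CLDN23 without the mean-variance trend (adjusted p = 0.0527). CLDN7 (0.31), JUP (0.24), CLDN3 (0.34), CLDN10 (0.37), CLDN4 (0.19) and EVPL (0.17) were higher as well, of which CLDN3, CLDN10 and CLDN4 lost their calls without siQKI replicate 1, CLDN3 and CLDN10 also without siQKI replicate 3 or siRBFOX2 replicate 3, and CLDN10 without siRBFOX2 replicate 1. Their adjusted p reached 0.0957, 0.124 and 0.106. Lower in siQKI were CLDN1 (log2 fold change -0.53 ± 0.07, adjusted p = 9.72e-05), TJP1 (log2 fold change -0.31 ± 0.04, adjusted p = 2.38e-05), CLDN12 (-0.28), F11R (-0.21) and PKP4 (-0.13), and PKP4 lost its call in 8 of 18 alternatives, among them leaving out siQKI replicate 1 or 2 or any siRBFOX2 library (adjusted p up to 0.102). For the desmosomal cadherins no difference between the knockdowns passed the test. It was 0.01 ± 0.09 for DSC2 (95% interval -0.17 to 0.20) and 0.01 ± 0.06 for DSG2 (-0.12 to 0.13).

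A further 12 junction genes passed the test in none of the 3 contrasts. They were CGN, CLDN6, CLDN9, CLDN15, CLDN16, CLDN22, DSC3, DSG4, DSP, MARVELD2, MARVELD3 and PKP2. CGN, DSP and PKP2, at 52.6, 4.08 and 46.8 times the PANC-1 level in HPAF-II, were among these. CLDN2 and DSG3, at 0 in siCtrl, stayed at no more than 2.10 normalized counts in any knockdown library.

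Genes that work with these proteins were taken from fixed lists. Of 29 tight junction partners tested, 5 rose and 7 fell in siQKI, and 3 rose and 7 fell in siRBFOX2. For these lists, the shares over all genes tested were 14.9% higher and 18.1% lower in siQKI, and 12.0% higher and 14.5% lower in siRBFOX2. The smallest adjusted p in siQKI belonged to PARD3, a polarity scaffold that fell by 0.79 (2.74e-08), ARHGEF18, an activator of RhoA (-0.50, 3.00e-07), PALS1 of the Crumbs complex (-0.31, 6.91e-04) and ARHGEF2 (-0.21, 7.31e-04). In siRBFOX2 they were ARHGEF2 (-0.32), the actin linker AFDN (-0.23), CGNL1 (paracingulin, 0.80) and JAM3 (0.20), with adjusted p of 2.89e-05, 4.52e-04, 0.00111 and 0.00374. Of 11 desmosome partners, 4 rose and 1 fell in siQKI and 2 rose in siRBFOX2, among them the protease ADAM17 in both (0.37 and 0.56, adjusted p = 5.92e-05 and 1.79e-06). In HPAF-II, 14 of 31 tight junction partners were called higher and 8 lower, and 3 and 2 of 11 desmosome partners. Over all genes compared between the lines, 21.1% were called higher and 21.6% lower.

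Of 16 regulators of junction genes tested, 3 rose and 6 fell in siQKI, and 2 rose and 3 fell in siRBFOX2. The shares over all genes were 14.9% higher and 18.1% lower in siQKI, and 12.0% and 14.5% in siRBFOX2. SNAI1, a repressor of epithelial genes, fell in siQKI (log2 fold change -0.52 ± 0.08, adjusted p = 7.39e-05) and in siRBFOX2 (log2 fold change -0.86 ± 0.08, adjusted p = 1.22e-06). KLF4, an epithelial factor, also fell in both (-0.46 and -0.80, adjusted p = 1.96e-04 and 1.88e-06), as did TFAP2C (-0.47 and -1.12, adjusted p = 0.00163 and 1.24e-06). ELF3, another epithelial factor, rose in siQKI (log2 fold change 0.58 ± 0.12, adjusted p = 0.00122). In HPAF-II, 9 of 17 regulators were called higher and 6 lower, beside 21.1% and 21.6% of all genes compared. GRHL2, an activator of epithelial junction genes, was at 0.0341 rescaled counts in PANC-1 and 32.2 ± 7.38 in HPAF-II, ELF3 at 3.29 and 252 ± 16.1, and the repressor ZEB1 at 28.7 and 1.09 ± 0.330 (SD, n = 3). Some other regulators did not divide in this way. GRHL3 was at 5.77 in PANC-1 and 0.893 ± 0.175 in HPAF-II, SNAI2, a relative of SNAI1, at 0.634 and 1.93 ± 0.687, and TFAP2C at 7.13 and 0.00108. The part of any of these genes in the junction gene values was not tested.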

How the data were processed

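RNA was measured in 12 libraries. The authors counted reads per gene and deposited signal values, which are those counts after division by DESeq2 size factors, in 1 table for the 9 PANC-1 and another for the 3 HPAF-II libraries, each with 48114 genes of the FAST DB annotation. Per the labels, reads were aligned with STAR 2.7.5a to hg38. Whether counting used strand or read pairs is not given in the sources used here, so overlapping genes are named as uncertain. Values were whole multiples of a step (within 0.01), and 82.1% to 84.8% of low values were multiples of 3. A step therefore does not stand for 1 fragment, depth in fragments is unknown, and no count test was run. Library totals ran from 292248837 to 376192091 steps (PANC-1) and from 226697015 to 309720537 (HPAF-II).

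For the knockdowns, limma 3.58.1 (R 4.3.3) was fitted to log2(normalized count + 1) of the 22544 genes whose mean over the 9 PANC-1 libraries reached 10, with eBayes using a trend and without a block. The adjusted p threshold was 0.05. Same-numbered libraries did not deviate together (r of -0.0325 to 0.0235 over genes), so replicate numbers were not taken as pairs. Between the lines, libraries were rescaled to a total of 1000000, with a pseudocount of 0.01 and a 2-fold minimum. Levels per kb used GENCODE v29 exon lengths. Alternatives were another pseudocount, filter, scaling, fit or threshold and leaving out each library. Members that passed the minimum are named, partner and regulator lists are given by counts with the up to 4 smallest p-values, and other named genes are checks. The members and lists were chosen with earlier results of these data known, and 1 gene that the naming rule finds and 1 listed marker are not reported here. Tables were handled with Python 3.11.15, numpy 2.4.6 and pandas 2.3.3, and figures drawn with matplotlib 3.10.9.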

Additional observations from a re-analysis of the deposited data

Results flagged for a closer look

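TJP1 was flagged because, in the main fit, it was called lower in siQKI and higher in siRBFOX2, and the difference itself passed the test. It was picked for this from the same values, so the test of the difference is not separate support. OCLN (0.10 in siQKI and -0.18 in siRBFOX2) and CLDN12 (-0.17 and 0.11) also had opposite signs. Their direct differences were called under all 18 alternatives, but in the main fit each was called in only 1 knockdown. With upper-quartile scaling OCLN was called in siQKI as well. For TJP1 the values were as follows. The log2 difference, siQKI minus siRBFOX2, was -0.31 ± 0.04 (limma, adjusted p = 2.38e-05, 95% interval -0.39 to -0.24). All 3 siQKI libraries lay below and all 3 siRBFOX2 libraries above the siCtrl libraries. The fall in siQKI was small and not called under upper-quartile scaling, while the direct difference was called under all 18 alternatives. The values are gene totals, and the interval of TJP1 overlaps other genes.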

How the results depend on the processing

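The direction of every called junction gene was kept under all alternatives run. In siQKI against siCtrl, 4 genes fell in place of 8 under upper-quartile scaling. Without the mean-variance trend, 5 genes fell in siQKI in place of 8, 5 rose in siRBFOX2 in place of 8, and 6 were higher in siQKI than in siRBFOX2 in place of 11, and at an adjusted p under 0.01 these 11 became 7. The cause was not tested, except that a lower threshold calls fewer genes by construction. Leaving out 1 library gave 10 to 11 genes higher and 6 to 8 lower in siQKI, 6 to 9 higher and 4 to 7 lower in siRBFOX2, 8 to 11 higher and 4 to 6 lower in the direct contrast, and 26 to 27 higher and 3 to 4 lower in HPAF-II. With the replicate number as a block, the counts were 10 and 8, 8 and 6, and 11 and 5, and no call of a junction gene changed.

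Of 1748 single values of the knockdowns under an alternative, 62 lost and 9 gained a call. Among the log2 ratios between the lines, 21 values under an alternative moved by more than the spread between libraries, with deposited values not rescaled or a larger pseudocount. Depth in fragments is unknown, and junction genes of under about 100 normalized counts, such as CLDN22 and MARVELD3, had standard errors of up to 1.61 on the log2 scale.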
